A study of Mus musculus with 6 samples.

Results

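Liver endothelial cells were examined through 33 genes, taken from general knowledge of the mouse liver, in liver RNA of mice fed regular or soy-enriched chow. They hold 17 genes that mark endothelium in general, 10 that mark the sinusoids, 3 that mark large vessels and continuous capillaries, and 3 secreted factors of the Wnt pathway that endothelial cells give to hepatocytes. A gene was found through the RefSeq accession of its probes and is given by its brightest probe, the one with the highest mean signal over all arrays. All 33 were on the array, of 22911 genes found in this way, and they are covered by 40 of its 56605 probes. The control group was 3 male mice on 100% granulated regular chow, and the soy group 3 male mice on 75% regular chow with 25% soy bean powder, all 12 weeks old at the start and fed for 28 days, each mouse giving 1 array. No genotype or strain is named in the sources used here. About the same piece was taken from the right lobe of each liver, and the labels state that the nearby large blood vessels were avoided, which limits what the large-vessel genes can show. Of 59305 spots, 37010, 36366 and 38163 were well above background on control arrays 1 to 3, and 31308, 31988 and 32498 on soy arrays 1 to 3.

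The liver is lined by a special endothelium. Its sinusoidal cells have open pores and no continuous basement membrane, and they clear waste molecules from blood with scavenger receptors, whereas the portal and central veins and the hepatic artery have a closed endothelium that carries Vwf and Cd34. Sinusoidal and central vein cells also release Wnt2, Wnt9b and the R-spondin Rspo3, which keep hepatocytes near the central vein in their own metabolic program.

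None of the 33 genes passed the study's thresholds (adjusted p under 0.05 by limma, with a fold change above 1.5 or under 0.66), where 0.350% of all probes did, and 0.673% of the 13513 genes whose brightest probe was well above background on all 6 arrays, as were the brightest probes of all 33. No loss or gain of endothelial RNA was detected in soy livers at this precision. Their median difference, soy minus control, was -0.0023 on the log2 scale, beside -0.01 for all probes; with a 75th-percentile shift in place of quantile normalization it was 0.05, beside 0.13. In 16 genes the soy mean was higher, and in 17 it was lower, but 14 were higher within slide 1 and 26 within slide 3. Slide 1 held control 1, control 2 and soy 1, slide 2 soy 2 alone, and slide 3 control 3 and soy 3, so each value within a slide rests on 1 soy mouse and soy 2 enters none. By the brightest probes, Wnt2 alone of the 33 had an unadjusted p under 0.05, a share of 3.03%. That share was 20.1% among the 13513 genes. In whole liver RNA, fewer cells of a type and less RNA per cell cannot be told apart.

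The precision of these values sets how large a change could have been missed. The 95% interval of the difference had a median half-width of 0.30 (log2), and for 26 of the 33 genes (78.8%) it lay wholly between a 1.5-fold fall and a 1.5-fold rise, as it did for 68.0% of the 13513 genes. It reached past 1.5-fold upward for Wnt2, Gata4, Erg and Kdr, and downward for Lyve1, Esam and Robo4.

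**Figure D1:**
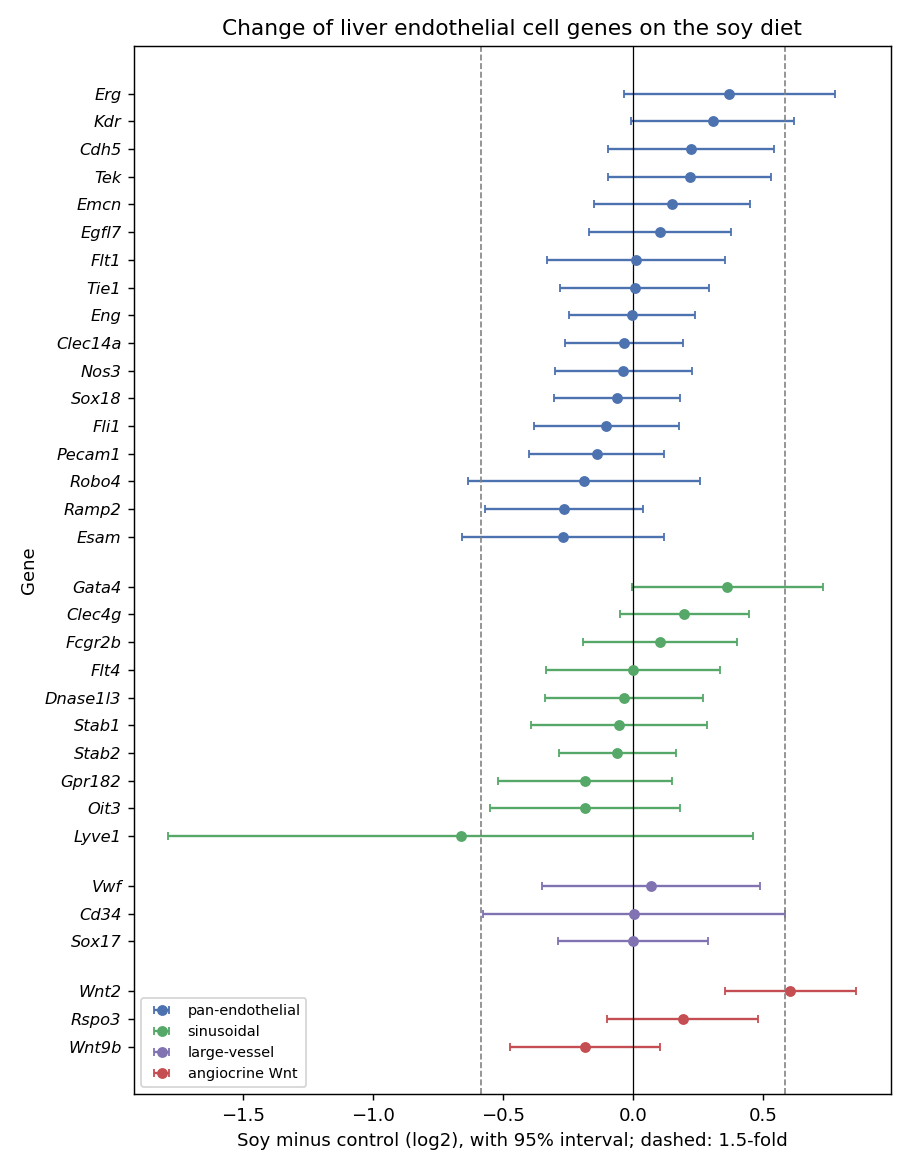
Soy minus control difference of the normalized signal (log2, x axis) for each of the 33 genes, with its 95% interval from limma (n = 3 arrays per group); the dashed lines mark a change of 1.5-fold in either direction. Wnt2 is the only gene whose interval, 0.35 to 0.86, lies wholly on one side of 0, and Lyve1 has the widest.

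Among the genes of endothelium in general, no junction or adhesion molecule passed. Pecam1 (NM_001032378), the adhesion molecule CD31, read 8.70, 8.47 and 8.74 in control mice 1 to 3, with 8.43, 8.46 and 8.59 in soy mice 1 to 3. The groups overlapped, and the difference was -0.14 (SE 0.11, adjusted p = 0.682). Cdh5 (NM_009868), the cadherin of endothelial junctions, read 10.28, 10.38 and 10.21 in control and 10.31, 10.46 and 10.78 in soy livers, a difference of 0.22 (SE 0.14, adjusted p = 0.593). Here soy 3 stood above the other arrays. Esam, a further junction molecule, differed by -0.27, by -0.14 without control 1 and by 0.08 within slide 3. Clec14a, a surface lectin of vessels, differed by -0.04. Emcn, a sialomucin of veins and capillaries, differed by 0.15, and Robo4, a guidance receptor that steadies vessels, by -0.19. Robo4 was highest on control 1 (12.13), 0.56 above the next array.

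No receptor of the vascular growth factors passed. Kdr (NM_010612), the main signalling receptor for VEGF, read 12.04, 12.50 and 12.13 in control and 12.54, 12.56 and 12.50 in soy livers. All soy values lay within 0.06 of each other, near the highest control value, and the difference of 0.31 had an interval of -0.0083 to 0.62 (SE 0.13, adjusted p = 0.447). Flt1, which binds VEGF and limits its signal, differed by 0.01. Tek, the angiopoietin receptor, differed by 0.22, and its relative Tie1 by 0.0047. Eng, a co-receptor of the BMP and TGF-beta family, differed by -0.0050, with values between 10.53 and 10.77 on all arrays. The secreted factor Egfl7 differed by 0.10, the nitric oxide synthase Nos3 by -0.04, and Ramp2, which makes a receptor respond to adrenomedullin, by -0.27 and, on its dimmer probe, by -0.31 (adjusted p = 0.308, unadjusted 0.0181), there without overlap.

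Transcription factors of endothelium differed in both directions, and none passed. Erg (NM_001302152), an ETS factor that maintains endothelial identity, read 7.78, 7.86 and 7.71 in control and 7.94, 7.96 and 8.56 in soy livers. Its groups did not overlap, but soy 3 carried most of the difference of 0.37 (SE 0.17, adjusted p = 0.478), which was 0.12 within slide 1 and 0.85 within slide 3. Fli1, the ETS factor closest to Erg, which blood cells carry as well, differed by -0.10. Sox18, a SOX factor of vessel and lymphatic growth, differed by -0.06.

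Sinusoidal genes gave a median difference of -0.05, with 4 of 10 higher and 6 lower in soy and none that passed. Stab2 (NM_138673), a scavenger receptor that takes up hyaluronan, read 13.19, 13.10 and 13.13 in control and 12.99, 13.10 and 13.16 in soy livers, a difference of -0.06 (SE 0.10, adjusted p = 0.851). Its interval, -0.29 to 0.16, was among the narrowest of the 33. The dimmer Stab2 probe differed by -0.17 (adjusted p = 0.561), without overlap. The related receptor Stab1 differed by -0.06 as well. Clec4g (NM_029465), a lectin of the sinusoid, read 14.57, 14.63 and 14.66 in control and 14.72, 14.98 and 14.75 in soy livers. Although the groups did not overlap, the difference was only 0.20 (SE 0.11, adjusted p = 0.545). Fcgr2b, the Fc receptor that removes immune complexes, differed by 0.10, Dnase1l3, a secreted nuclease, by -0.04, Oit3 by -0.19, and Gpr182, a scavenger of chemokines, by -0.19. Flt4, the receptor for VEGF-C and VEGF-D, differed by 0.00024.

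Gata4 (NM_008092), the GATA factor that drives sinusoidal over continuous endothelium, read 9.29, 9.61 and 9.92 in control and 9.98, 9.97 and 9.95 in soy livers. The groups did not overlap, since the soy arrays lay close together above a wide control range, and the difference was 0.36 (SE 0.16, adjusted p = 0.443). It was 0.53 within slide 1 and 0.03 within slide 3. The dimmer Gata4 probe, well above background on the 3 control arrays but on no soy array, gave 0.05.

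Lyve1 (NM_053247), a hyaluronan receptor of sinusoidal and lymphatic endothelium, varied most among the mice. It read 11.15 on control 1, whereas control 2 and 3 gave 9.23 and 9.31 and the soy mice 9.48, 8.88 and 9.34. Control 1 stood 1.68 above the next highest mouse, and the within-group SD of 0.80 exceeded that of 99.2% of the 13513 genes, whose median was 0.16. The difference of -0.66 (SE 0.48, adjusted p = 0.655) was -0.04 without control 1.

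The 3 large-vessel genes had a median difference of 0.0021, again with none that passed. Vwf (NM_011708), the clotting factor that endothelial cells and platelets store, read 10.33, 9.62 and 9.90 in control and 10.13, 9.99 and 9.93 in soy livers, a difference of 0.07 (SE 0.18, adjusted p = 0.918). Cd34 (NM_133654), a sialomucin of continuous endothelium and blood progenitors, read 9.24, 8.41 and 8.20 in control and 8.71, 8.53 and 8.62 in soy livers, a difference of 0.0021 (SE 0.25, adjusted p = 0.999). On both, control 1 was the highest of the 6 arrays. Sox17, a SOX factor of arteries, differed by -0.0023. Dimmer probes gave another sign, with -0.16 for Cd34, where it was well above background on no array, and 0.31 for Sox17, well above background on 3 arrays.

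Set side by side, the sinusoidal median was 0.05 below the large-vessel median (difference of medians -0.05), with no test over the lists. This value rests on few genes and on single arrays. It was -0.30 without control 1, 0.13 without control 2 and 0.03 without soy 1. In each mouse, the mean over the large-vessel genes of the signal minus the control mean was 0.35, -0.19 and -0.16 on control 1 to 3 and 0.17, -0.06 and -0.04 on soy 1 to 3. For the sinusoidal genes it was 0.09, -0.01 and -0.08 in control and -0.11, -0.04 and -0.0052 in soy livers. The spread between control mice was therefore wider than the distance between the diets in both groups of genes. Over all 33 genes the same mean was 0.07, -0.0054 and -0.07 in control and -0.03, -0.02 and 0.08 in soy livers, a span of at most 0.08 on either side of the control mean.

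**Figure D2:**
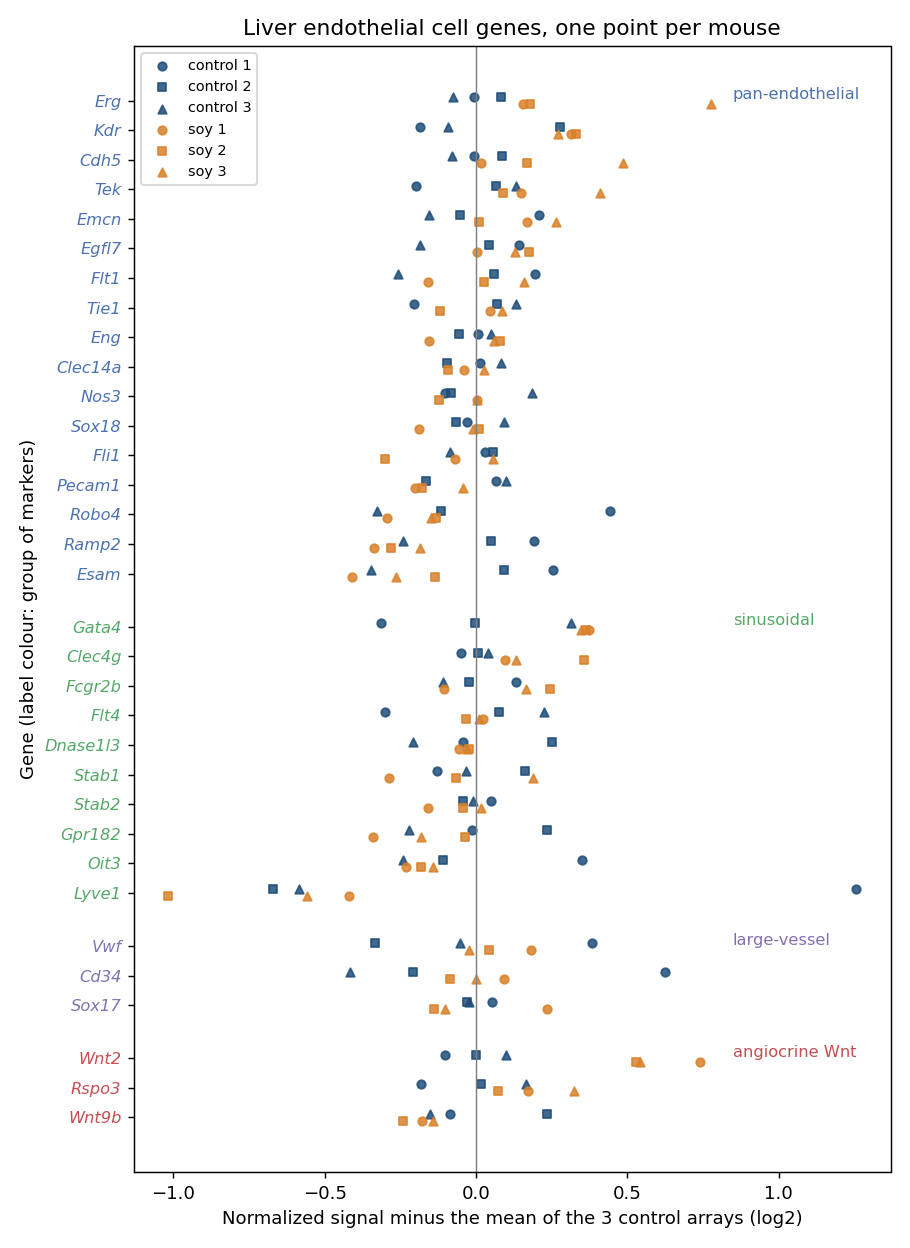
Normalized signal of each of the 33 genes minus its control mean (log2, x axis), with 1 point per mouse (blue control, orange soy; circle, square and triangle for replicates 1 to 3), genes grouped by the colour of their label. The orange points of Wnt2 all lie to the right of the blue ones, and control 1 stands apart for Lyve1.

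Control 1 was the highest of the 6 arrays for 9 genes, and by the widest gap for Lyve1, Robo4, Cd34 and Oit3 (1.68, 0.56, 0.53 and 0.46). It also had the lowest value for 8 genes. Without it, the difference of Oit3 was -0.01 and that of Robo4 0.03. Markers of other cells varied among the control mice as well. The mean over 8 Kupffer cell markers was -0.37, 0.01 and 0.36 on control 1 to 3, and the mean over 8 stellate cell markers was 0.22, -0.10 and -0.13. Their part in the endothelial values was not tested.

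Of the Wnt factors, Wnt2 (NM_023653) showed the clearest difference of the 33 genes. It read 9.20, 9.30 and 9.40 on control arrays 1 to 3 and 10.04, 9.83 and 9.85 on soy arrays 1 to 3. Every soy value lay above every control value. The groups did not overlap, in either direction, for 4 of the 33 genes (12.1%) and for 25.6% of the 13513 genes. Control mice averaged 9.30 ± 0.10 and soy mice 9.91 ± 0.12 on this log2 scale (SD, n = 3 each). The difference of 0.60 (SE 0.11, interval 0.35 to 0.86), or 1.52-fold, had an unadjusted p of 0.000633 by limma, rank 443 among all probes. Its adjusted p of 0.0806 did not pass. The difference was 0.79 within slide 1 and 0.44 within slide 3, and between 0.54 and 0.65 with any 1 array left out, where the adjusted p was 0.114 to 0.223. With only the probes tested that were well above background, Wnt2 passed (adjusted p = 0.0456), and it also passed with the Agilent processed signal (adjusted p = 0.0189), where 13138 of the 56605 probes did and its unadjusted p was 0.00367. The adjusted p was 0.240 with the slide as a block and 0.162 with an offset of 16.

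Wnt9b and Rspo3 gave smaller differences, and of opposite sign. Wnt9b (NM_011719), the other Wnt ligand of the central vein, read 7.63, 7.95 and 7.57 in control and 7.54, 7.48 and 7.57 in soy livers, a difference of -0.19 (SE 0.12, adjusted p = 0.622). Rspo3 (NM_028351), which holds Wnt receptors at the cell surface, read 9.14, 9.34 and 9.48 in control and 9.49, 9.39 and 9.64 in soy livers, a difference of 0.19 (SE 0.13, adjusted p = 0.621). Both overlapped between the groups. Wnt9b was highest on control 2, 0.32 above the next array, so part of its difference rested on 1 mouse. It was -0.25 within slide 1 and 0.0088 within slide 3. Rspo3 was lowest on control 1 and differed by 0.26 within slide 1 and 0.16 within slide 3.

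Hepatocyte genes that answer to Wnt were set beside the ligands. Of 15 such genes, none passed. Soy means were higher in 3 and lower in 12, and their median difference was -0.17. With 1 array left out, that median ranged from -0.25 to -0.09, and 3 to 5 of the 15 were higher. Lgr5 (NM_010195), the R-spondin receptor, read 8.47, 8.96 and 8.19 in control and 9.19, 9.06 and 9.61 in soy livers, without overlap, a difference of 0.75 (SE 0.22, adjusted p = 0.254). Rnf43, which removes Wnt receptors, differed by 0.53 (adjusted p = 0.357), also without overlap. Oat (NM_016978), the ornithine aminotransferase of central hepatocytes, lay on the other side, with 15.49, 15.57 and 15.85 in control and 14.81, 14.13 and 14.13 in soy livers, a difference of -1.28 (SE 0.20, adjusted p = 0.0591). It passed without soy 1. The general Wnt target Axin2 differed by -0.11 and glutamine synthetase, Glul, by -0.17.

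**Figure D3:**
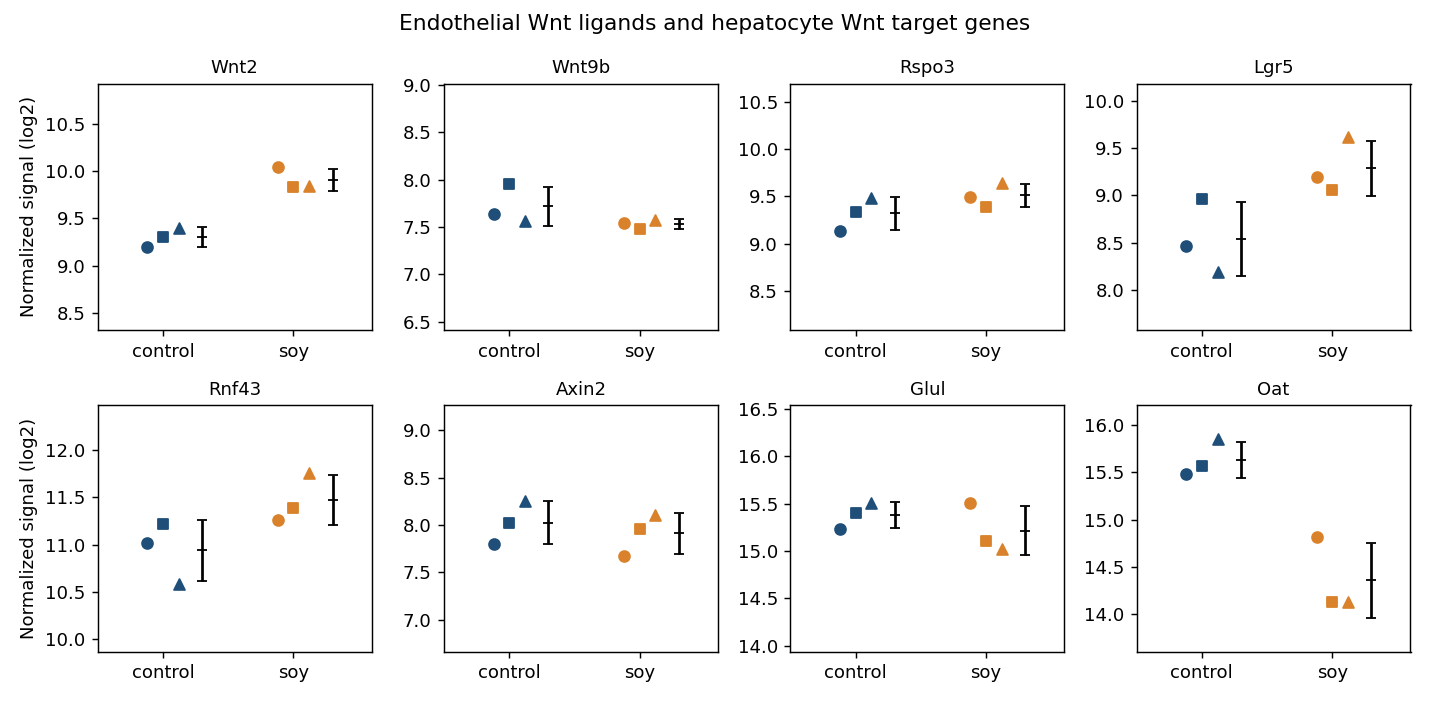
Normalized signal (log2, y axis, all panels of the same height in log2 units) of the 3 endothelial Wnt factors and 5 hepatocyte Wnt target genes in each mouse (circle, square and triangle for replicates 1 to 3), with the mean and SD of each diet (n = 3). Wnt2, Lgr5 and Rnf43 lie higher in all soy mice, Oat lies lower in all of them, and Wnt9b, Rspo3, Axin2 and Glul overlap.

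Promoter sequences are shown for the genes with the smallest p that the RefSeq promoter table holds, Wnt2, Kdr and Erg, with Gata4 the 4 of lowest p among the 33. Each run is the 250 bases before a listed start of the gene, on the minus strand of GRCm38.p6, written along the gene. Capitals mark matches, on either strand, to the ETS core CCGGAA, the SOX letters ACAAT, the GATA letters AGATAA and the CCAAT box. The SOX letters and the CCAAT box differ in their first base alone, so a run of bases cannot match both on one strand. The ETS, SOX and GATA factors named above bind such letters.
Wnt2, chr6:18030446-18030695: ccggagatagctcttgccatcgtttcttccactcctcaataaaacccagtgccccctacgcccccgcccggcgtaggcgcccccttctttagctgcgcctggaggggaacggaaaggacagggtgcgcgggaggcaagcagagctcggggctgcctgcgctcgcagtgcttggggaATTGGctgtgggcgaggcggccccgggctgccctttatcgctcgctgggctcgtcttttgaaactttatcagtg
Kdr, chr5:75978456-75978705: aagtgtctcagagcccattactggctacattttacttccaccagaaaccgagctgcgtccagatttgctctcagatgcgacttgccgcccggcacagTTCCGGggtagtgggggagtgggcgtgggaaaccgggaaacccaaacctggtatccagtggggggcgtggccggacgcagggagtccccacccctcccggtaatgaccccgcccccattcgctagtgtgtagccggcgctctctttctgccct
Erg, chr16:95459349-95459598: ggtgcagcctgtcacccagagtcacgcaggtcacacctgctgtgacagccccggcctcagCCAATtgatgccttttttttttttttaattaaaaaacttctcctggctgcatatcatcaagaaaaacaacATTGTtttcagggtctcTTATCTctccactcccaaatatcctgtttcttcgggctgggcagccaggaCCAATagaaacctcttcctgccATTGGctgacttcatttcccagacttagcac

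The Wnt2 window holds 1 CCAAT match and the Kdr window 1 ETS match. The Erg window, chosen from 3 listed starts because it holds the most matches, has 1 SOX, 1 GATA and 3 CCAAT matches. Of the 22 windows that the table lists for 18 of the 33 genes, 1 holds the ETS core, 8 the SOX letters, 1 the GATA letters and 6 the CCAAT box. Over all 32851 windows of this length the shares are 12.03%, 27.66%, 9.99% and 33.85%. A match is only a run of letters, and no binding was measured.

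Ligands and co-receptors of the VEGF and angiopoietin pathway were examined next. By their brightest probes, none of 10 genes passed, and their median difference was 0.03, or -0.05 without control 1. Vegfd (NM_010216), a ligand of Flt4, read 8.83, 8.02 and 8.71 in control and 9.27, 9.47 and 9.83 in soy livers, without overlap, a difference of 1.00 (SE 0.24, adjusted p = 0.153). Its dimmer probe differed by 0.52. Vegfb, a ligand of Flt1, differed by 0.43 (adjusted p = 0.348). Vegfc, the other ligand of Flt4, lay on the other side, by -0.40 (adjusted p = 0.410) and by -0.33 on its dimmer probe, both without overlap. On the brighter probe the difference was -0.78 within slide 1 and -0.01 within slide 3. Vegfa, the main ligand of Kdr, differed by -0.09 on its brightest probe. Its other probes gave -0.37 (adjusted p = 0.299) and -0.23, both without overlap, and 0.17, so they did not share a direction. Angpt2, which tempers signalling through Tek, differed by 0.13.

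Nrp2, a co-receptor for VEGF-C and semaphorins in veins and lymphatics, differed in direction between its probes. The brightest (NM_001077406) read 17.52, 16.94 and 16.82 in control and 16.42, 16.24 and 16.43 in soy livers, a difference of -0.73 (SE 0.19, adjusted p = 0.180). The next (NM_001077403), singled out after its values were seen, read 10.82, 11.20 and 10.91 in control and 11.96, 12.13 and 12.07 in soy livers, and it passed with a rise of 1.07 (SE 0.13, adjusted p = 0.0258). The dimmest (NM_001077407) differed by 0.51 (adjusted p = 0.128). In all 3 the groups did not overlap, so the array gives no single direction for this gene. The brightest probe averaged 17.09 in control livers, beside 17.16 for the hepatocyte marker Apoa1, and whether its signal is Nrp2 RNA was not tested. Each probe is listed under 1 transcript accession, and whether it reads that transcript alone is not known here. The rise of the middle probe was 0.95 within slide 1 and 1.16 within slide 3. With 1 array left out it passed without control 2 (adjusted p = 0.0424) but in no other fit (0.0607 to 0.113).

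Among the other sinusoidal genes and the adhesion and junction genes, Thbd and Vcam1 had the largest differences by their brightest probes. Thbd (NM_009378), the thrombomodulin that checks clotting, read 8.71, 9.09 and 9.54 in control and 8.02, 7.85 and 8.15 in soy livers, a difference of -1.11 (SE 0.21, adjusted p = 0.0872), and it passed when only probes well above background were tested. Vcam1 (NM_011693), the adhesion molecule for leukocytes, read 11.46, 10.76 and 10.54 in control and 10.24, 9.50 and 9.93 in soy livers, a difference of -1.03 (SE 0.27, adjusted p = 0.194). Neither gene overlapped between the groups. In the list of other sinusoidal genes, which holds Thbd, 7 of 8 were higher in soy, the median difference was 0.12 and none passed, Maf (0.43) and Kit (0.32) differing most after Thbd. Without control 1 the median was 0.03, Maf 0.21 and Kit 0.03. Of 8 adhesion and junction genes, 4 were higher and none passed, and F11r differed by 0.21 and Ctnnb1 by -0.09. With 1 array left out, 1 to 5 of the 8 were higher, and F11r was 0.06 without control 2.

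**Figure D4:**
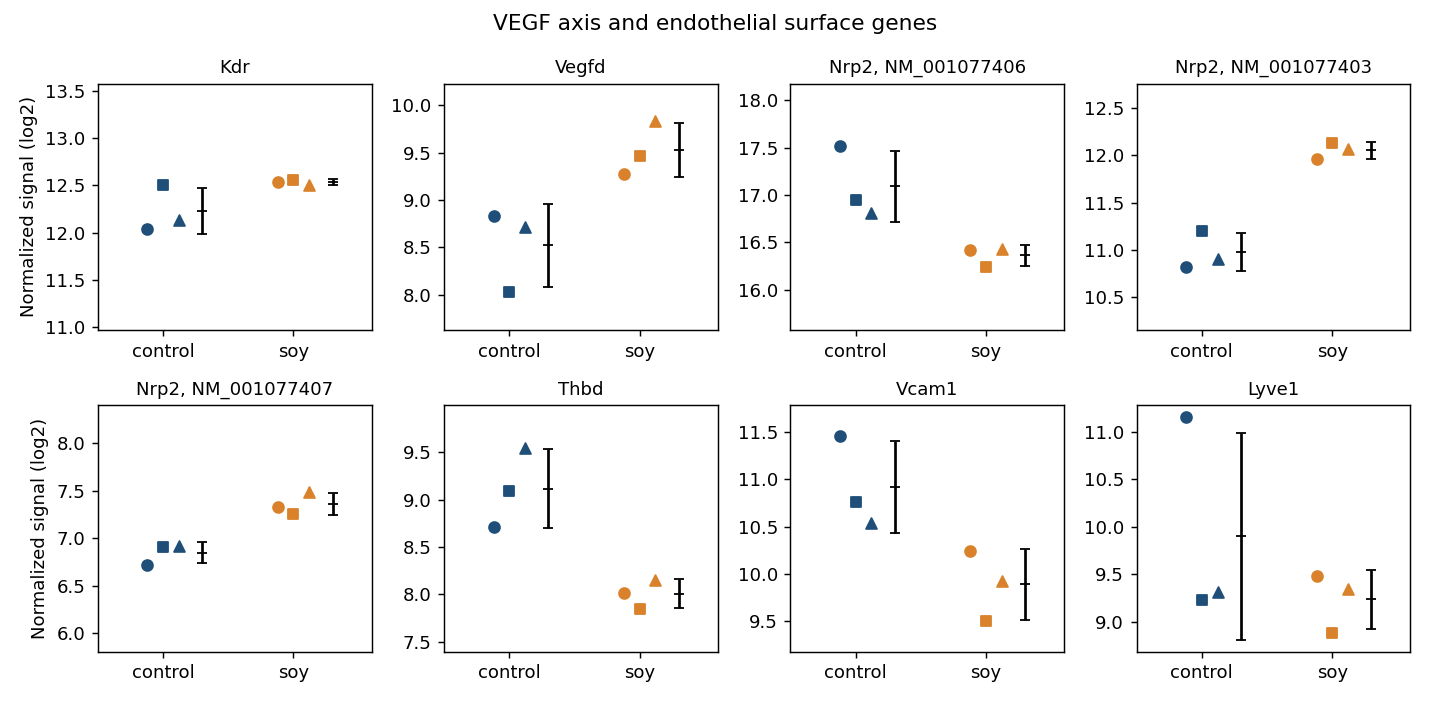
Normalized signal (log2, y axis, all panels of the same height in log2 units) in each mouse (circle, square and triangle for replicates 1 to 3), with the mean and SD of each diet (n = 3), for Kdr, Vegfd, the 3 Nrp2 probes by accession, Thbd, Vcam1 and Lyve1. The brightest Nrp2 probe is lower and the other Nrp2 probes are higher in all soy mice, and Lyve1 is high in control 1 alone.

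Of 16 other genes of large vessels and continuous capillaries, 6 were higher, 10 lower and none passed (median -0.07). With the 75th-percentile shift, 8 were higher and 8 lower (median -0.0042). With 1 array left out, 4 to 8 of the 16 were higher. Only 12 of the 16 were well above background on all 6 arrays. The largest differences were in Ephb4, the ephrin receptor of veins (0.58, adjusted p = 0.435), Cldn5, a claudin of tight junctions (0.46), and Ackr1, a chemokine binder of venules (0.44). Each rested in part on 1 control array, as Ephb4 was 0.29 without control 3, Cldn5 0.24 without control 1 and Ackr1 0.17 without control 2. Of 13 genes of Notch and BMP signalling, 4 were higher, 9 lower and none passed (median -0.11), and 10 were well above background on all 6 arrays. Notch4, an endothelial Notch receptor, differed by -0.41 (adjusted p = 0.574) and was highest on control 1, at 10.79, while Hey1 differed by -0.32 and the ligand Dll4 by -0.24. Without control 1, Notch4 and Hey1 each differed by -0.11. Hey1 was well above background on 3 control arrays but on only 1 soy array. Bmp2 and Bmp6, the sinusoidal ligands that set hepcidin in hepatocytes, differed by 0.0058 and -0.04. Of 3 lymphatic markers, none passed, and Prox1, which hepatocytes also express, differed by -0.44 (adjusted p = 0.257), Pdpn by -0.30 and Ccl21a by 0.18, or by -0.07 without soy 2. Pdpn was well above background on 3 control and 2 soy arrays.

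The other cells of the liver give the setting for these values. All 8 hepatocyte markers were well above background on every array. Their median difference was -0.06, with 1 of 8 higher, 7 lower and none that passed. With 1 array left out it ranged from -0.12 to -0.03, and with cyclic loess it was -0.01 with 4 of 8 higher. Their mean in each soy mouse (-0.19 to -0.08) lay below that in each control mouse (-0.03 to 0.02). Cps1, the first enzyme of the urea cycle, differed by -0.47 (adjusted p = 0.176), Fgb by -0.37 and Alb by -0.14, or by -0.04 without soy 3. The Kupffer cell median was 0.19, with 7 of 8 higher and none that passed (Marco -0.73, Cd5l 0.45, Vsig4 0.43), but without control 1 it was 0.04 with 4 of 8 higher, Cd5l at 0.20 and Vsig4 at 0.27. Marco was -0.20 without control 3. The stellate cell median was -0.14, with 1 of 8 higher and none that passed (Colec11 -0.33, Reln -0.23, Ecm1 -0.18), and without control 1 it was -0.05 with 2 of 8 higher. Only 7 of these 8 were well above background on all 6 arrays. None of 6 cholangiocyte, 5 smooth muscle and pericyte, or 5 measured red cell and neutrophil markers passed, with medians of -0.01, 0.05 and 0.42, of which the first 2 changed sign with some array left out. In these lists 3, 3 and 4 genes were well above background on all 6 arrays. All 5 red cell and neutrophil markers were higher, though Ngp was well above background on no array. The median of the 5 ranged from 0.225 to 0.55 with 1 array left out. Their mean in each soy mouse (0.31 to 0.59) lay above that in each control mouse (-0.13 to 0.17). Such means also lay apart for the Wnt factors (0.12 to 0.25 in soy, -0.12 to 0.08 in control mice). They did so too for the lymphatic markers (-0.33 to -0.11 in soy, -0.06 to 0.05 in control mice), and they overlapped for every other list. Among genes well above background in all 3 mice of at least 1 diet, the differences of largest size were those of Cftr (-0.23), Sox9 (-0.16) and Spp1 (0.15) for cholangiocytes, Cspg4 (-0.33), Rgs5 (0.33) and Myh11 (-0.11) for smooth muscle and pericytes, and S100a9 (0.62), S100a8 (0.58) and Alas2 (0.42) for red cells and neutrophils, where S100a9 was 0.33 and S100a8 0.29 without control 1, and Alas2 ranged from -0.42 (without control 2) to 0.85 (without control 1). Cftr, Cspg4 and Myh11 were well above background on all 3 control arrays but on only 0, 1 and 2 soy arrays. These 3 therefore entered through the control mice, and their soy values lay near the background. A dimmer Sox9 probe gave 0.35 (adjusted p = 0.412), without overlap.

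Of 7 lymphocyte and platelet markers none passed, 3 were higher and 4 lower, and the median difference was -0.09, which turned to 0.13 with the 75th-percentile shift. Only 5 of the 7 were well above background on all 6 arrays. Ppbp, a platelet chemokine, differed by -0.32, Ptprc, carried by all leukocytes, by 0.28 without overlap (0.03 on its other probe), and Cd3e, of the T cell receptor complex, by -0.11 (-0.38 without overlap on its other probe). Fcgr2b, which leukocytes carry as well as sinusoids, differed by 0.10 on one probe and 0.19 on the other. Over all 120 measured genes of the further lists, by their brightest probes, none passed by limma. Among the 13513 genes, 20.1% had an unadjusted p under 0.05 by limma. Those genes were selected by the background flag of every array, a condition that only 102 of the 120 met. With no such selection, 15 of the 120 (12.5%) had an unadjusted p under 0.05, so the shares come from unlike sets. Of 28 of these genes with several probes well above background on all 6 arrays, 11 had probes of both signs, Glul, Ctnnb1, Vegfa, Nrp2 and Sox9 among them. Of the 42 genes chosen by size of difference, 19 moved by over 1.5 times without control 1, and 7 to 13 did so when another array was left out.

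**Figure D5:**
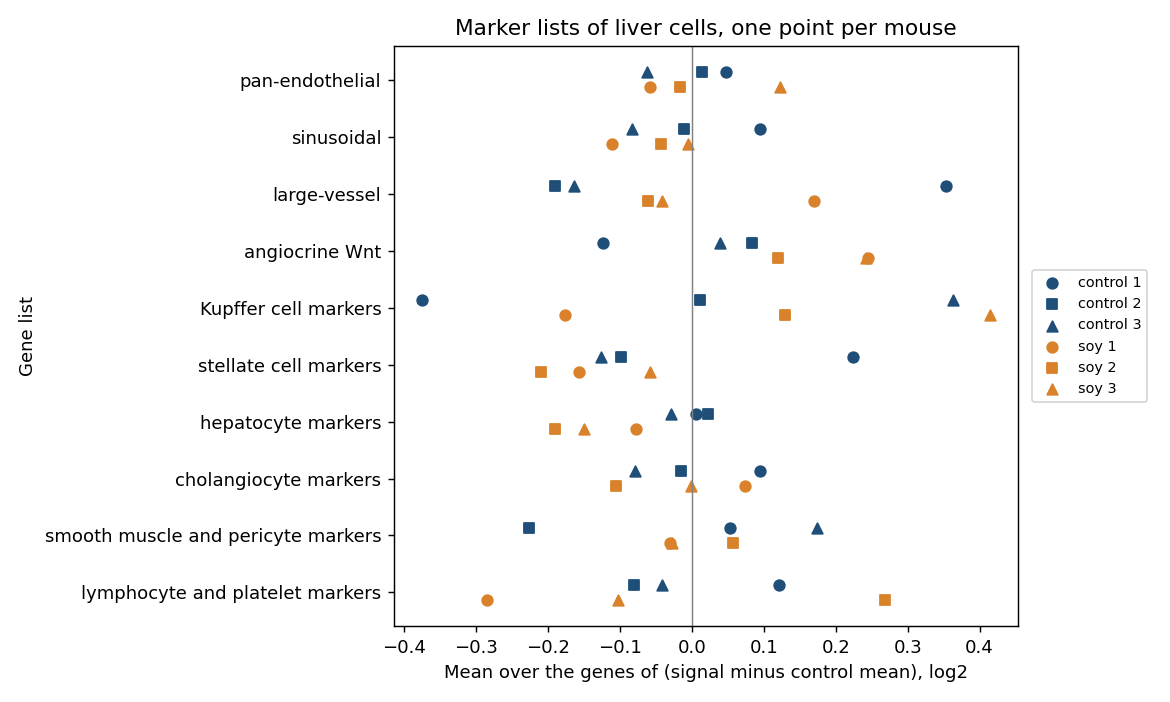
Mean over the genes of each list of the signal minus the control mean (log2, x axis), with 1 point per mouse (blue control, orange soy; circle, square and triangle for replicates 1 to 3). Pan-endothelial and sinusoidal means stay between -0.11 and 0.12 in all mice, large-vessel means range from -0.19 to 0.35 and Kupffer cell means from -0.37 to 0.41.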

How the data were processed

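Livers of 6 mice were hybridized to 1-colour Agilent arrays. The authors deposited scanner tables made with Feature Extraction 11.5.1.1. For every spot they hold the median intensity and that of the local background, uncorrected and unscaled between arrays, beside a processed signal and flags (well above background, outlier and the like). They also deposited log2 values that share their quantiles across arrays, with array medians of 7.33 to 7.34, which differed from the values computed here by 0.056 at most. Here the median intensities were corrected by normexp (offset 50) and log2 transformed, control spots removed, arrays quantile normalized, outlier spots left out and spots of a probe averaged. Each of 56605 probes was tested with limma 3.58.1 (R 4.3.3), with Benjamini-Hochberg adjustment over all probes. The small number of arrays, 3 in each group, is one limit on precision. Plots were made with matplotlib 3.10.9 (Python 3.11.15).

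A symbol was found for 32994 probes (58.3%) through RefSeq accessions of GRCm38.p6. The 33 genes, the 14 further lists (121 genes, 120 measured) and the tests were chosen with earlier results of these data known. Every one of the 33 genes was named, and of each further list the genes that passed or else the 3 with the largest difference among those well above background in all 3 mice of at least 1 diet, with a few others picked for their role after the values were seen. Alternatives were the background correction, offset, scaling, dim-probe filter, outliers, eBayes settings, deposited values, blocks, threshold, probe choice and each array left out. One gene of a further list is not reported here. The fit was tested on simulated data.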

Additional observations from a re-analysis of the deposited data

How the results depend on the processing

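None of the 33 genes passed under any alternative with a test, except Wnt2 with the Agilent processed signal (adjusted p = 0.0189) and when the dim probes were left out of the test (adjusted p = 0.0456), each giving 1 gene that passed. In the second setting fewer probes were tested. The cause of the first was not tested, and it came with 13138 probes that passed, 11924 of them higher in soy, in place of 198 probes with 118 higher. The number of probes that passed was 77 with an offset of 16, 299 with a 75th-percentile shift, 493 without the dim probes and 24 with the slide as a block, and it ranged from 23 (without soy 3) to 199 (without control 3) with 1 array left out. Of the 120 genes of the further lists, whose counts were added after seeing the data, 8 passed with the processed signal, 2 without the dim probes (Thbd and Oat), and 1, Oat, with the 75th-percentile shift and with the trend and robust settings of eBayes. With 1 array left out it was 0 to 1, the 1 being Oat without soy 1. The rising Nrp2 probe was lost in 8 of 18 alternatives.

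The median of the 33 genes was -0.11 within slide 1 and 0.092 within slide 3, and sinusoidal minus large-vessel was -0.32 within slide 1, 0.037 within slide 3 and -0.30 (without control 1) to 0.13 (without control 2) with 1 array left out. The 75th-percentile shift moved the median of all probes to 0.13, and the processed signal to 0.13 as well, and the median of the 33 genes minus that of all probes was then -0.08 and -0.11. Signs turned for 13 genes in fits over both groups and for 22 within a slide, 24 of the 33 in all, and the cause was not tested. Flt4 was -0.0098 without background correction, -0.0033 in the deposited values and -0.014 with the slide as a block. Flt1 was -0.038 and -0.0040, Clec14a 0.035 and 0.051, and Sox17 0.016 and 0.087 with the processed signal and the 75th-percentile shift, which also gave Dnase1l3 as 0.00047. Sox17 was 0.030 with cyclic loess, 0.094 with the slide as a block and 0.15 with the mean of its probes, where Cd34 was -0.079. With 1 array left out, the differences ranged from -0.12 to 0.11 for Flt1, -0.098 to 0.071 for Tie1, -0.048 to 0.069 for Eng, -0.098 to 0.0013 for Sox18, -0.35 to 0.031 for Robo4, -0.083 to 0.0049 for Clec14a, -0.089 to 0.054 for Nos3, -0.18 to 0.060 for Stab1, -0.14 to 0.090 for Dnase1l3, -0.15 to 0.11 for Flt4, -0.098 to 0.26 for Vwf, -0.21 to 0.31 for Cd34 and -0.12 to 0.066 for Sox17.

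The replicate numbers are shared by the groups, and same-numbered arrays deviated with correlations of 0.116, -0.0574 and 0.106. These 3 values cannot settle whether the numbers pair the mice. Control 1 and soy 1 shared a slide, as did control 3 and soy 3, while control 2 and soy 2 lay on different slides. Replicate number and slide can therefore not be told apart here. With the replicate block, 77 probes, 0 of the 33 genes and 0 genes of the further lists passed, and the adjusted p of Wnt2 was 0.166.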
